A study of Mus musculus with 6 samples.

Results

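The G2 and mitosis genes described here are 37 genes whose RNA is made late in the cell cycle, chosen by symbol from a list drawn up with earlier results of these data known. All 37 were found among the 31918 genes of the expression table, and all 37 passed the filter on low values. RNA was sequenced from spermatogonia, the dividing germ cells of the testis, taken from mouse pups at postnatal day 8. The groups were 3 libraries of cells with bright ID4-GFP fluorescence, labelled high for Id4 expression (Bright), and 3 of cells with dim fluorescence, labelled low (Dim). All 6 came from mice of the Id4-eGfp (LT11) line, in which a green fluorescent reporter follows Id4, so the groups differ in reporter level and share the transgene, tissue and age. Nothing in the labels ties a library to an animal or to a pool of animals, and the p-values measure only how these samples vary, and that variation may be technical. Id4 itself averaged 36.96 ± 7.51 FPKM in Bright and 4.62 ± 0.821 FPKM in Dim (SD, n = 3 each; FPKM is fragments per kilobase of transcript, scaled to library size).

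As background, a cell enters mitosis when cyclin B activates the kinase CDK1, and polo-like and Aurora kinases then build the spindle and prepare the chromosomes. The spindle checkpoint holds the anaphase-promoting complex back until every kinetochore is attached, after which that complex marks cyclin B for destruction and the cell divides. Genes of this programme are kept silent in quiescent and early G1 cells and are switched on together in late S phase and G2, through CHR and CCAAT letters in their promoters that recruit the DREAM and MYB-MuvB complexes and NF-Y. In the postnatal testis both stem-like and differentiating spermatogonia divide.

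Promoter letters are shown for 6 genes because they are a feature that many of the 37 genes share and that was not used to choose them. RefSeq windows on GRCm38.p6, reaching 250 bases before the start site and 300 bases long, were found for 32 of the 37 genes (34 windows), all but Aurkb, Dlgap5, Tpx2, Cdca2 and Smc4. The CHR letters searched were TTTGAA and TTCGAA, and the CCAAT box was CCAAT, each on both strands (TTCGAA reads the same on either strand, and CHR and CCAAT letters can overlap by 1 base at most). CHR letters occurred in 76.5% of the windows of the 37 genes, against 17.6% of 21263 windows of protein coding genes and 19.2% of all 32851 windows. CCAAT occurred in 76.5%, against 38.2% of protein coding windows, and both occurred in 64.7%, against 7.11%. Among 79 windows of other G2 and mitosis genes, 55.7% held CHR letters, 63.3% held CCAAT and 41.8% held both. Of S phase genes, 22.9% of 35 windows held CHR letters, 68.6% held CCAAT and 17.1% held both. A match is a description of letters and not a site. The 6 genes printed are those with the largest difference between Bright and Dim among the genes with CHR letters, from 150 bases before the start site to 50 bases from it, in lower case with the CHR and CCAAT letters of either strand in capitals.
Gas2l3: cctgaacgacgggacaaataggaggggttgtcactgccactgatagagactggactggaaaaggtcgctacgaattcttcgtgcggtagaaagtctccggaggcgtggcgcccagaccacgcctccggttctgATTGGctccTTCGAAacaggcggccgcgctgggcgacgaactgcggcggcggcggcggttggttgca
Plk1: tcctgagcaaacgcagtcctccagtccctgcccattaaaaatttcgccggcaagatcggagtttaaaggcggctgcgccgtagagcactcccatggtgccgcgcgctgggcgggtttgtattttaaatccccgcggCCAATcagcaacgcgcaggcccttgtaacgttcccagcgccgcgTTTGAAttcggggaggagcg
Hmgb2: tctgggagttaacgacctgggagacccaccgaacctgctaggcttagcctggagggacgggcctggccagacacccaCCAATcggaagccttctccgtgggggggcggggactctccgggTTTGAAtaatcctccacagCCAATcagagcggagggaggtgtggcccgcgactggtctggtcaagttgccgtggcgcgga
Cdk1: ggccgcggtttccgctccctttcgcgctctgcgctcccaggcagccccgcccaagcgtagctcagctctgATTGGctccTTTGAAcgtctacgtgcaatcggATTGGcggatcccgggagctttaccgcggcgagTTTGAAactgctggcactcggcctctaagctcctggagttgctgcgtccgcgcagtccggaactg
Tmpo: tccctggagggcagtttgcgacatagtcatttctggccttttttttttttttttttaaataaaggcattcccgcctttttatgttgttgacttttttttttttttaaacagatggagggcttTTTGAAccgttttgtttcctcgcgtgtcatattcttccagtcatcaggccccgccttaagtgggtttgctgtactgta
Cdca3: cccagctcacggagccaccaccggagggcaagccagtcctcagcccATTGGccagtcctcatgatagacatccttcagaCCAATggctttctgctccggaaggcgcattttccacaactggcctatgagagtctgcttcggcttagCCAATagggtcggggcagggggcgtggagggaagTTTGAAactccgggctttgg
The windows lie at chr10:89443918-89444117, minus strand (Gas2l3), chr7:122159285-122159484, plus strand (Plk1), chr8:57511693-57511892, plus strand (Hmgb2), chr10:69352863-69353062, minus strand (Cdk1), chr10:91170501-91170700, minus strand (Tmpo, the downstream one of its 2 start sites, the other window holding no CHR letters) and chr6:124830026-124830225, plus strand (Cdca3). In Gas2l3 the letters TTCGAA lay at positions -8 to -3, with the CCAAT letters of the other strand at -17 to -13. Cdk1 held TTTGAA at 2 places, and in Plk1 and Cdca3 TTTGAA lay after the start site, at positions 31 to 36 counted from 1 at the start base. The windows of Birc5, Ccnb1, Cks2, Cenpe, Nuf2, Tacc3 and Nusap1 held no CHR letters.

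The Bright library numbered 3 stood apart before any comparison. Its Leydig cell markers (6 genes) summed to 1787 FPKM, against 2.39 and 2.91 in the other Bright libraries and 1.94 to 3.43 in Dim, its Sertoli markers (8 genes) to 525.8 FPKM against 9.81 and 14.8 in the other Bright libraries and 8.77 to 23.9 in Dim, and its peritubular and stromal markers (8 genes) to 259.0 against 34.3 and 36.7 in the other Bright libraries and 25.3 to 29.6 in Dim. Endothelial markers (5 genes) summed to 6.97 to 20.6 FPKM in Bright and 2.86 to 3.13 in Dim, macrophage markers (6 genes) to 2.87 to 40.1 in Bright and 2.35 to 14.5 in Dim, and erythroid markers (4 genes) to 0.778 to 17.6 in Bright and 1.72 to 9.42 in Dim. No marker was at 0 in every library. In Bright 3, single genes carried much of the Leydig, Sertoli and stromal sums (Insl3 at 1370, Clu at 428.9 and Dcn at 151.2 FPKM). Among the Sertoli markers, Sox9 was also highest in Bright 3, at 2.61 FPKM. Amh (1.39 FPKM in Bright 3) and the stromal marker Col1a1 (17.7) were not highest in that library. Markers of germ cells (8 genes, among them Ddx4 and Dazl) summed to 1699 to 2186 FPKM in Bright and 1918 to 2390 FPKM in Dim, and those of differentiating spermatogonia (7 genes, among them Kit and Stra8) to 294.6 to 363.5 FPKM in Bright and 655.1 to 795.6 FPKM in Dim. The germ cell sums rest mostly on Uchl1 and Dazl, which averaged lower in Bright. Of the 8 germ cell markers, 3 passed with Bright higher (limma, adjusted p under 0.05), where 12% of all genes tested passed with Bright higher. These were Gfra1 (83.3 FPKM in Bright, 4.98 in Dim), Zbtb16 (80.2 and 41.8) and Sall4 (85.9 and 50.6). The other 5 germ cell markers did not pass. Of the 7 markers of differentiating spermatogonia, 5 passed with Dim higher, where 10.5% of all genes tested did. Of the endothelial markers 4 were tested, and 4 passed with Bright higher. Of 5 stromal markers tested, 1 passed, with Bright higher. No Leydig, Sertoli, macrophage or erythroid marker passed.

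Of the G2 and mitosis genes, 36 of 37 did not pass the test between Bright and Dim. Of the 37 genes, Gas2l3 alone passed the test between groups with a higher level in Bright, and 0 passed with a higher level in Dim, by limma at an adjusted p under 0.05. Over all 13416 genes tested, 22.5% passed (12% higher in Bright, 10.5% higher in Dim). At an unadjusted limma p under 0.05 the counts were 3 (Gas2l3, Tmpo, Cdk1) and 2 (Plk1, Birc5), or 5 of 37 in either direction, where all genes gave 35.4% in either direction and 17.7% in each. Under other settings, 4 of the 37 were called after median rescaling (22.5% of all genes) and after quantile normalization (23.5%), 3 without Bright 2 (19.4%), 1 without Bright 3 (18.9%) and 10 with the replicate number as a block (40.6%). Those 10 were Gas2l3, Cdk1, Tmpo and Cenpe, higher in Bright, and Plk1, Birc5, Hmgb2, Kif23, Tpx2 and Cdca3, higher in Dim. The median log2 fold change of the 37 genes, Bright minus Dim on log2(FPKM + 1), was -0.03, and that of all genes tested was also -0.03. The median size of the change, whatever its sign, was 0.15 for the 37 genes and 0.29 for all genes tested. Median rescaling divided each library by its median ratio to the gene means on the log2 scale, over genes at 5 FPKM or more in every library. After it the median of the 37 genes was 0.03 and that of all genes tested was 0.02. Without Bright 3 these medians were 0.10 and -0.01. The sign of the median changed with the setting, for the 37 genes and for all genes tested. In bulk samples, fewer dividing cells and less RNA per dividing cell cannot be told apart.

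A difference that misses the threshold does not show that levels were equal, and the 95% intervals (limma, not adjusted for the number of genes) give what these libraries allow. For 32 of the 37 genes the interval spanned 0, and for 35 it lay within a 2-fold change in either direction. For 21 it lay within 1.5-fold. Of all 13416 genes tested, 9986 had an interval within 2-fold and 4349 within 1.5-fold. The exceptions to 2-fold were Gas2l3 and Birc5, whose interval reached from -1.02 to -0.06 on the log2 scale. On simulated data with 3 libraries in each group, the test recovered 67% of genes given a log2 change of 1. For a change of 2 it recovered 89%. The simulation changed 200 genes, where 3016 of the 13416 genes passed in the measured data. It also gave both groups the SD of the Dim libraries, while the median coefficient of variation of the 37 genes was 18.8% in Bright and 12.7% in Dim. These shares are therefore not the recovery rate of the test for the 37 genes.

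**Figure D1:**
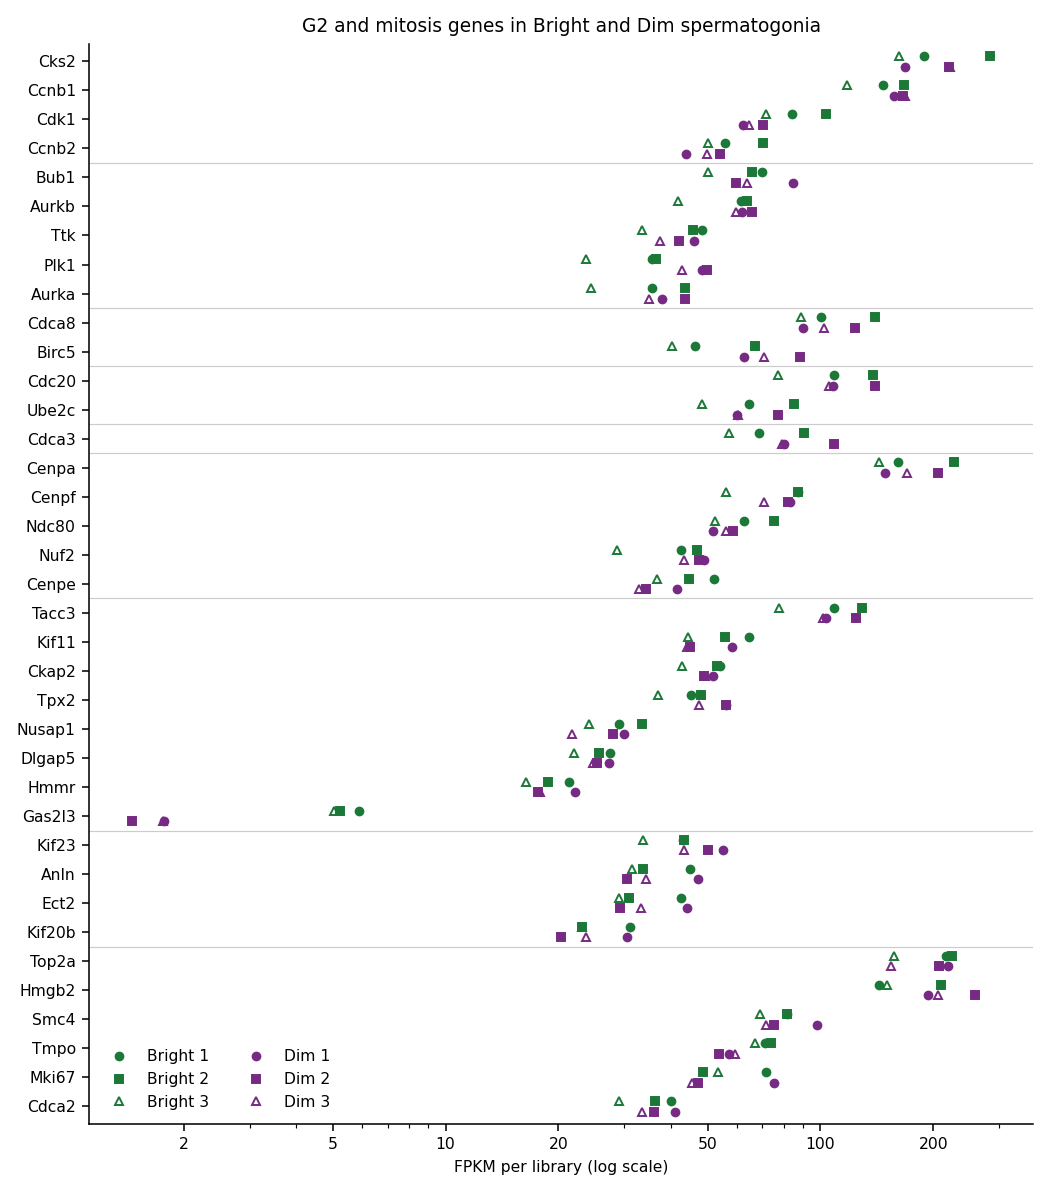
FPKM of each of the 37 genes in each library (log axis), Bright in green above Dim in purple within a row, with open triangles for the libraries numbered 3; lines separate functional classes. Gas2l3, at 5.05 to 5.87 FPKM in Bright and 1.46 to 1.78 FPKM in Dim, is the lowest gene and is clear of overlap, while most other genes overlap and Bright 3 is often lowest.

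Gas2l3 encodes a protein that binds actin and microtubules and acts at the midbody in cytokinesis (GRCm38 chromosome 10, 89408823 to 89443967, minus strand). It measured 5.87, 5.24 and 5.05 FPKM in Bright 1, 2 and 3, against 1.78, 1.46 and 1.76 FPKM in Dim 1, 2 and 3. Every Bright library was above every Dim library, by a 3.23-fold ratio of the means (5.39 ± 0.430 FPKM in Bright and 1.67 ± 0.178 FPKM in Dim, SD, n = 3 each). On the log2 scale Gas2l3 differed by 1.26 ± 0.15 (SE), with a 95% interval of 0.93 to 1.60 (limma adjusted p = 0.000844). The call held under all 12 alternatives, with adjusted p between 0.00023 and 0.00529. Gas2l3 was also the lowest of the 37 genes, with a mean of 3.53 FPKM over the 6 libraries where Hmmr, the next lowest, had 19.0. In the authors' deposited table its log2 ratio of Bright over Dim was 1.77 (q = 0.000921). Its longest coding transcript, of 6748 bases, shares stretches of at least 200 bases at 95% identity or more with transcripts of 26 other genes, 23 of them in the expression table, and reads from those stretches cannot be assigned with certainty.

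Among the kinases of mitotic entry and the checkpoint, Plk1 came nearest to the threshold of those that missed it. Plk1, the polo-like kinase that drives centrosome maturation and mitotic entry (GRCm38 chromosome 7, 122159439 to 122169873, plus strand), measured 35.5, 36.4 and 23.7 FPKM in Bright 1, 2 and 3, against 48.2, 49.7 and 42.7 FPKM in Dim 1, 2 and 3. The groups did not overlap and every Dim library was above every Bright library. Its log2 fold change was -0.56 ± 0.18 (SE; limma adjusted p = 0.0544), and the adjusted p was 0.0448 after median rescaling, 0.0389 after quantile normalization and 0.0418 without Bright 2, in a range of 0.00406 to 0.132 over the 12 alternatives. In the authors' deposited table Plk1 passed, with a log2 ratio of -0.63 (q = 0.017). Of the other kinases, Aurora A (Aurka), which acts at spindle poles, averaged 34.5 ± 9.52 FPKM in Bright and 38.8 ± 4.35 in Dim, and Aurora B (Aurkb), the catalytic subunit of the chromosomal passenger complex, 55.6 ± 12.05 FPKM in Bright and 62.3 ± 3.09 FPKM in Dim. The checkpoint kinases Bub1 and Ttk averaged 61.7 ± 10.4 and 42.5 ± 8.0 FPKM in the Bright libraries, against 69.2 ± 13.2 and 41.8 ± 4.29 FPKM in the Dim libraries. The log2 fold changes of these 4 kinases lay between -0.20 and 0.01, and none passed (lowest limma adjusted p = 0.494).

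In the cyclin-CDK core, the log2 fold changes of Cdk1 and Ccnb1 were 0.38 and -0.20, and no gene passed. Cdk1, the kinase that cyclin B activates, measured 83.9, 103.5 and 71.3 FPKM in Bright 1, 2 and 3, against 62.3, 70.2 and 64.3 FPKM in Dim 1, 2 and 3. The groups were separate by a narrow margin, with the lowest Bright library at 71.3 FPKM and the highest Dim library at 70.2. Its log2 fold change of 0.38 ± 0.16 (SE) did not pass (limma adjusted p = 0.134), but did after median rescaling (0.039) and quantile normalization (0.0299), in a range of 0.0259 to 0.309 over the 12 alternatives. Ccnb2 (cyclin B2) averaged 58.6 ± 10.3 FPKM in Bright and 49.2 ± 5.04 in Dim, and Ccnb1 (cyclin B1) 143.9 ± 25.1 FPKM in Bright and 163.7 ± 5.69 FPKM in Dim. Cks2, a small subunit that helps CDK1 bind phosphorylated substrates, measured 188.7, 283.8 and 161.8 FPKM in Bright 1, 2 and 3, against 168.4, 219.8 and 221.6 FPKM in Dim 1, 2 and 3. It had the highest mean of the 37 genes (207.3 FPKM), and its groups overlapped (log2 fold change 0.03).

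In the chromosomal passenger complex, which corrects kinetochore attachments, Birc5 and Cdca8 had log2 fold changes of -0.54 and 0.05, neither past the threshold. Birc5 (survivin) measured 46.3, 66.8 and 40.2 FPKM in Bright 1, 2 and 3, against 62.7, 88.3 and 70.5 FPKM in Dim 1, 2 and 3. Bright 2 fell within the Dim range, and the log2 fold change of -0.54 ± 0.21 (SE) did not pass (limma adjusted p = 0.103), with an adjusted p of 0.0228 without Bright 2 and a range of 0.00544 to 0.269 over the 12 alternatives. Cdca8 (borealin) averaged 109.7 ± 26.6 FPKM in Bright and 105.1 ± 16.9 in Dim. Cdc20 and Ube2c, the activator and the initiating E2 enzyme of the anaphase-promoting complex, averaged 107.9 ± 30.7 and 65.9 ± 18.3 FPKM in the Bright libraries, against 117.5 ± 19.2 and 65.8 ± 9.86 FPKM in the Dim libraries. Cdca3, which promotes mitotic entry through destruction of the kinase Wee1, averaged 72.0 ± 17.0 FPKM in Bright and 89.2 ± 16.8 FPKM in Dim (log2 fold change -0.32, limma adjusted p = 0.306).

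At the kinetochore, where chromosomes meet spindle microtubules, Cenpa, the histone H3 variant of centromeres, measured 160.9, 226.9 and 143.3 FPKM in Bright 1, 2 and 3, against 148.6, 205.8 and 170.2 FPKM in Dim 1, 2 and 3. These values overlapped fully, with a log2 fold change of 0.00 and a 95% interval of -0.48 to 0.48. The motor Cenpe averaged 44.3 ± 7.62 FPKM in Bright and 36.1 ± 4.59 in Dim, and Cenpf, a large outer kinetochore protein, 76.6 ± 17.9 FPKM in Bright and 78.5 ± 6.73 FPKM in Dim. Ndc80 and Nuf2, which pair in the complex that grips microtubules, averaged 63.5 ± 11.4 and 39.3 ± 9.45 FPKM in the Bright libraries, against 55.3 ± 3.28 and 46.6 ± 2.97 FPKM in the Dim libraries. The 5 kinetochore genes had log2 fold changes of -0.27 to 0.28, and none passed (lowest limma adjusted p = 0.260).

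Apart from Gas2l3, the spindle genes stayed within 0.29 of 0 on the log2 scale. Tpx2, the activator of Aurora A, had the largest of these differences (43.4 ± 5.77 FPKM in Bright, against 53.0 ± 4.95 FPKM in Dim; log2 fold change -0.29, limma adjusted p = 0.199). Hmmr, which encodes the spindle protein RHAMM, measured 21.3, 18.8 and 16.4 FPKM in Bright 1, 2 and 3, against 22.2, 17.6 and 17.9 FPKM in Dim 1, 2 and 3, so its groups overlapped. Tacc3, a microtubule-stabilizing partner of Aurora A, averaged 105.0 ± 26.0 FPKM in Bright and 110.0 ± 12.8 FPKM in Dim. Kif11, the motor that pushes spindle poles apart, averaged 54.8 ± 10.03 FPKM in Bright and 48.9 ± 7.85 FPKM in Dim. The microtubule-binding genes Ckap2 (49.9 ± 6.27 FPKM in Bright and 49.9 ± 1.64 FPKM in Dim), Nusap1 (28.9 ± 4.65 FPKM in Bright and 26.6 ± 4.30 FPKM in Dim) and Dlgap5 (25.04 ± 2.82 FPKM in Bright and 25.8 ± 1.33 FPKM in Dim) did not pass either. Of the cytokinesis genes, Kif23, a central spindle motor, was lower in every Bright library (42.9, 43.1 and 33.7 FPKM in Bright 1, 2 and 3, against 54.8, 50.1 and 43.3 in Dim 1, 2 and 3), by a margin of under 1 FPKM between the nearest libraries, at a log2 fold change of -0.30 (limma adjusted p = 0.193). The scaffold Anln, the RhoA activator Ect2 and the motor Kif20b had log2 fold changes of -0.02, -0.06 and 0.06.

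Among genes of chromosome structure and the nuclear envelope, Tmpo, which encodes the lamina-associated LAP2 proteins, was higher in every Bright library. Its levels were 71.3, 73.8 and 67.0 FPKM in Bright 1, 2 and 3, against 56.9, 53.6 and 59.1 FPKM in Dim 1, 2 and 3. Its log2 fold change of 0.32 ± 0.12 (SE) did not pass (limma adjusted p = 0.0999), but did after median rescaling (0.03) and quantile normalization (0.0374), in a range of 0.03 to 0.293 over the 12 alternatives. Top2a, the topoisomerase that untangles sister chromatids, measured 216.7, 224.2 and 157.2 FPKM in Bright 1, 2 and 3, against 218.8, 206.9 and 153.8 FPKM in Dim 1, 2 and 3. Its groups overlapped, with Bright 3 and Dim 3 lowest. Hmgb2, a chromatin protein, measured 143.1, 209.2 and 150.8 FPKM in Bright 1, 2 and 3, against 193.0, 258.2 and 205.4 FPKM in Dim 1, 2 and 3, and only Bright 2 reached the Dim range (log2 fold change -0.39, limma adjusted p = 0.195). Under each number Hmgb2 was lower in Bright than in Dim. Mki67, the proliferation antigen Ki-67, averaged 57.9 ± 12.3 FPKM in Bright and 55.8 ± 16.6 in Dim. The condensin subunit Smc4 averaged 77.3 ± 7.39 FPKM in Bright and 81.6 ± 14.4 FPKM in Dim, and Cdca2, which brings a phosphatase to chromosomes, 35.1 ± 5.52 FPKM in Bright and 36.8 ± 3.90 FPKM in Dim. In all, Bright and Dim were fully separate for 5 of the 37 genes (Gas2l3, Cdk1 and Tmpo with Bright above, Plk1 and Kif23 with Bright below), where 41.1% of all genes tested did not overlap (20.4% with Bright above, 20.8% with Bright below).

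**Figure D2:**
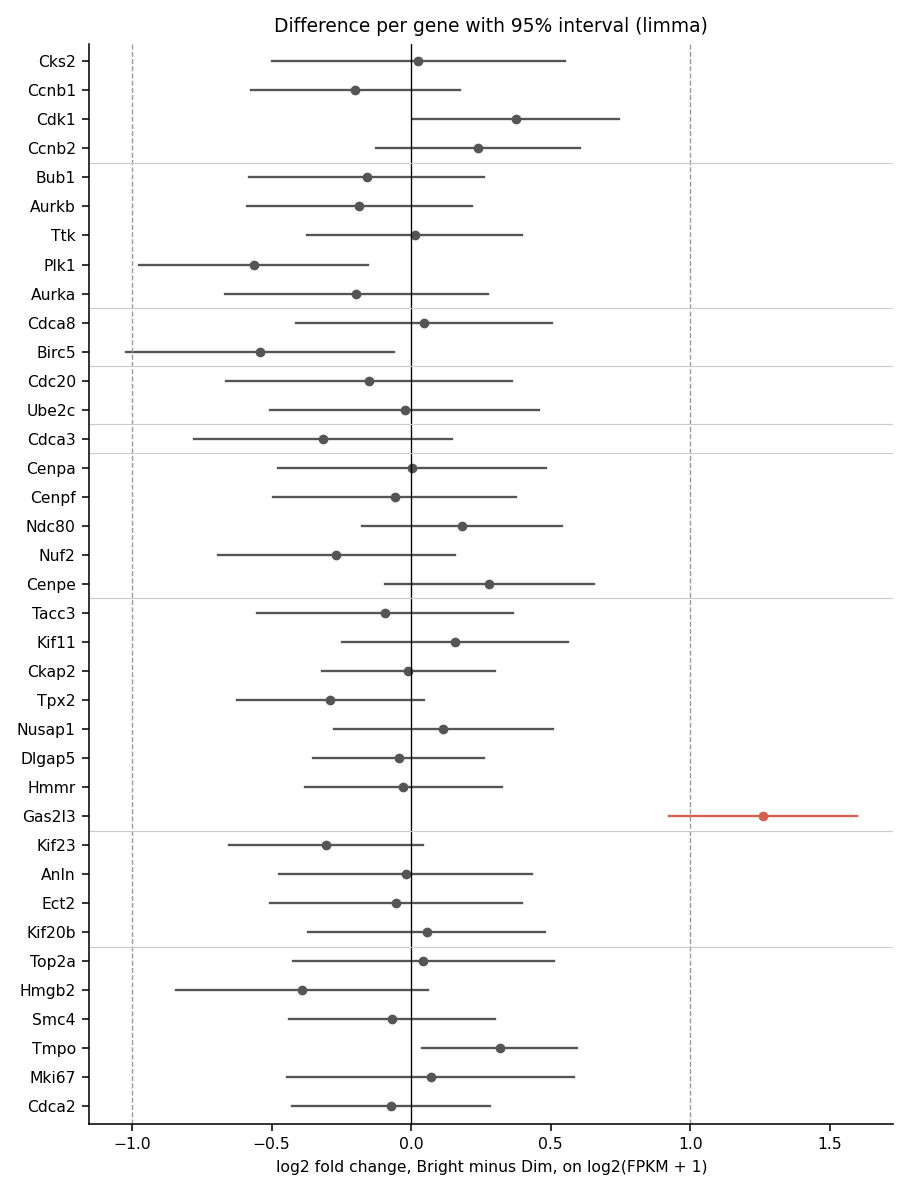
Log2 fold change of each of the 37 genes, Bright minus Dim on log2(FPKM + 1), with its 95% interval from limma; red marks adjusted p under 0.05 and dashed lines mark a 2-fold change. Gas2l3, at 1.26, lies apart from the other genes, which range from -0.56 (Plk1) to 0.38 (Cdk1).

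Ratios between the 37 genes were compared within libraries, since a ratio of 2 genes in 1 library does not depend on how that library was scaled. In 666 ratios between all pairs of the 37 genes, 196 (29.4%) did not overlap between Bright and Dim. These ratios use the same genes many times, Gas2l3 included, and no share over pairs of all genes tested was computed. Of all single genes tested, 41.1% did not overlap. The 12 ratios between functional partners described here were chosen after the values were seen, so no test is given. In Bright 1, 2 and 3 the FPKM of Plk1 was 0.423, 0.352 and 0.333 of that of Cdk1, against 0.774, 0.709 and 0.664 in Dim 1, 2 and 3. Plk1 and Cdk1 were each separate between the groups, in opposite directions, so this ratio could not overlap. The ratio of Ccnb1 to Cdk1 was 1.75, 1.62 and 1.65 in Bright, against 2.53, 2.37 and 2.61 in Dim. The ratio of Cdca8 to Birc5 was 2.17, 2.09 and 2.21 in Bright, against 1.44, 1.40 and 1.45 in Dim. Ndc80 to Nuf2 stood at 1.48, 1.61 and 1.83 in Bright, against 1.06, 1.23 and 1.29 in Dim. Of the 12 ratios, 2 were higher in every Bright library, 6 were higher in every Dim library and 4 overlapped, among them Aurora A to its activator Tpx2 (0.785 ± 0.120 in Bright and 0.731 ± 0.0524 in Dim).

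**Figure D3:**
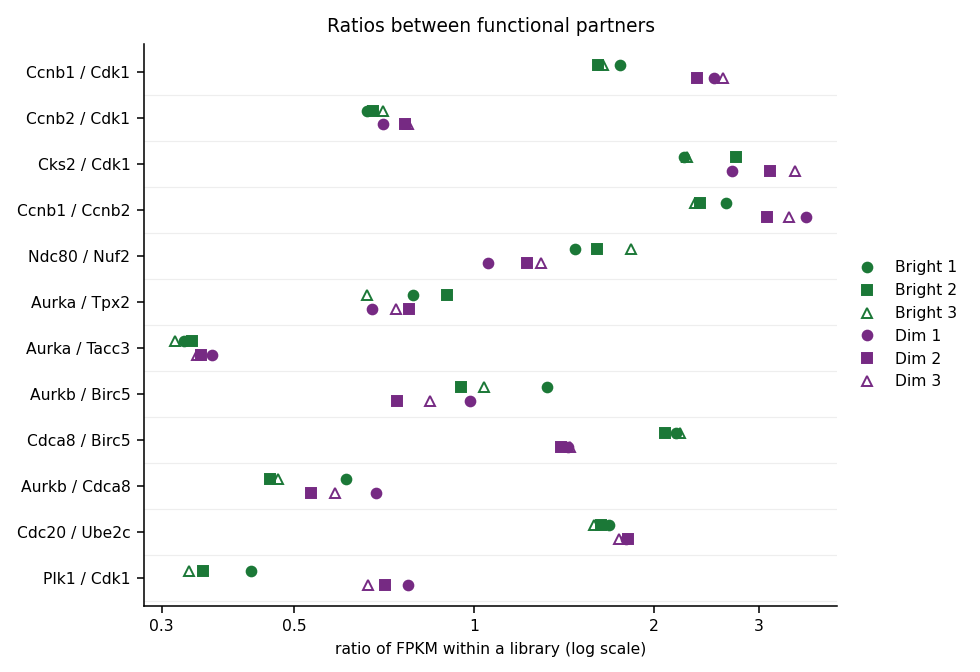
Ratio of FPKM of 12 pairs of functional partners within each library (log axis), Bright in green above Dim in purple. The ratios Plk1 to Cdk1 (0.333 to 0.423 in Bright, 0.664 to 0.774 in Dim) and Cdca8 to Birc5 (2.09 to 2.21 in Bright, 1.40 to 1.45 in Dim) do not overlap between the groups. For Plk1 to Cdk1 this follows from the single genes, which are each separate, in opposite directions.

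The summed level of the 37 genes overlapped between the groups and varied most within Bright. Summed over the 37 genes, FPKM was 2660, 3053 and 2114 in Bright 1, 2 and 3, against 2693, 2888 and 2543 in Dim 1, 2 and 3. Bright 3 was the lowest Bright library for 35 of the 37 genes (all but Hmgb2 and Mki67) and the lowest of all 6 for 24. Its median deviation from the Bright mean was -0.26 on the log2 scale over the 37 genes and -0.07 over all genes tested. This is the library with the highest sums of Leydig, Sertoli and stromal markers, and their part in its low values was not tested. The median coefficient of variation of the 37 genes was 18.8% in Bright and 12.7% in Dim, against 16.6% in Bright and 14.5% in Dim over all genes tested. With libraries matched by number, Bright was above Dim for 18 of the 37 genes in number 1, for 27 in number 2 and for 9 in number 3, where 48.1%, 48.9% and 44.3% of all genes tested were higher in Bright in numbers 1, 2 and 3. In all 3 numbers, 6 of the 37 genes were higher in Bright (31.1% of all genes tested) and 9 were lower in Bright (36.0% of all genes tested).

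Libraries 1 and 2 differed alike in both groups, and over the 37 genes the difference went with transcript length. Of the 37 genes, 31 differed in the same direction between libraries 1 and 2 of Bright as between libraries 1 and 2 of Dim, 15 of them higher in library 1 and 16 higher in library 2. Mki67 was at 71.7 FPKM in Bright 1 and 48.4 in Bright 2, and at 74.95 in Dim 1 and 47.1 in Dim 2. Birc5 went the other way, with 46.3 FPKM in Bright 1, 66.8 in Bright 2, 62.7 in Dim 1 and 88.3 in Dim 2. Across the 37 genes the log2 differences between libraries 1 and 2 had a Pearson correlation of 0.953 between Bright and Dim, where all 13416 genes tested gave 0.794. Among the 12 genes with the shortest coding transcripts (692 to 2405 bases), 0 were higher in Bright 1 than in Bright 2 and 1 was higher in Dim 1 than in Dim 2. Among the 12 with the longest (4086 to 11130 bases), 9 were higher in Bright 1 and 11 in Dim 1. The log2 difference correlated with the log2 of transcript length at r = 0.72 in Bright and 0.68 in Dim (37 genes, which share libraries and are not independent). Library 3 minus the mean of libraries 1 and 2 correlated with length at r = 0.408 in Bright and -0.43 in Dim. No correlation with length was computed over all genes tested. The difference between Bright and Dim correlated with length at r = 0.299, and the part of length in any of these differences was not tested.

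**Figure D4:**
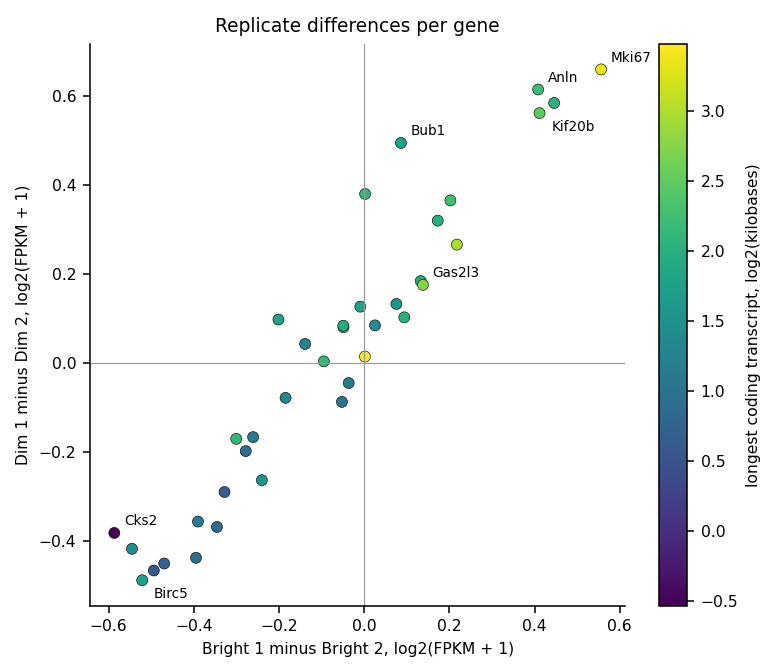
Each point is 1 of the 37 genes, placed by its log2(FPKM + 1) difference between libraries 1 and 2 in Bright (x axis) and in Dim (y axis) and coloured by the length of its longest coding transcript. The points follow a rising line (r = 0.953), with long transcripts such as Mki67 at the upper right and short ones such as Cks2 at the lower left.

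Other genes of the same programme were read from a list of 88 further symbols, of which 83 were found in the table, and all 83 were tested. Of these, 3 passed with Bright higher, 6 with Dim higher and 74 did not pass, with a median log2 fold change of -0.01. That is 10.8% called, beside 22.5% of all genes tested. G2e3, a ubiquitin ligase named for its expression in G2, averaged 56.0 ± 6.35 FPKM in Bright, against 26.6 ± 4.32 FPKM in Dim (log2 fold change 1.05, limma adjusted p = 0.00252). The condensin subunit Ncaph (46.9 ± 7.83 FPKM in Bright and 30.4 ± 1.81 FPKM in Dim) and the checkpoint gene Mad1l1 (15.01 ± 2.12 FPKM in Bright and 9.89 ± 1.57 FPKM in Dim) were the others higher in Bright. Of the genes higher in Dim, Spc24, a subunit of the NDC80 complex, averaged 17.7 ± 4.10 FPKM in Bright, against 30.8 ± 3.83 FPKM in Dim (log2 fold change -0.78, limma adjusted p = 0.0161). Oip5, which helps load CENP-A, was at 11.8 ± 1.30 FPKM in Bright and 18.7 ± 0.853 FPKM in Dim, and the spindle genes Ckap2l, Gtse1 and Psrc1 at 19.4 ± 2.30, 27.3 ± 5.15 and 3.23 ± 0.642 FPKM in the Bright libraries, against 32.1 ± 3.56, 41.6 ± 3.55 and 6.86 ± 1.36 FPKM in the Dim libraries. Exons of Oip5 and of Nusap1 overlap on opposite strands, and their reads cannot be told apart without strand. Of the 8 genes named, which leaves out 1 called gene under the naming rule, G2e3, Oip5, Ckap2l and Psrc1 kept their calls with each library left out in turn. Mad1l1 lost its call without any 1 of the 6 libraries (limma adjusted p 0.0576 to 0.118). Ncaph lost it without Bright 1, Bright 2, Dim 2 or Dim 3 (0.0647 to 0.0968), Gtse1 without Bright 3, Dim 1, Dim 2 or Dim 3 (0.0572 to 0.0951), and Spc24 without Bright 3 (0.0502) or Dim 2 (0.0508). With no filter on low values, Mad1l1, Ncaph and Gtse1 also lost theirs (0.0891, 0.0586 and 0.0762), and Mad1l1 did so after quantile normalization (0.0647). The regulators FoxM1 (Foxm1, 58.7 ± 12 FPKM in Bright and 75.4 ± 14.5 in Dim) and B-MYB (Mybl2, 38.8 ± 0.916 FPKM in Bright and 41.0 ± 2.653 FPKM in Dim) did not pass, nor did cyclin A2 (Ccna2, 94.0 ± 17.8 FPKM in Bright and 115.3 ± 3.97 FPKM in Dim). These 3 were named after their values were seen.

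The S phase genes, the part of the cycle just before, stood at a median log2 fold change of -0.20, and 7 of the 42 passed (16.7%), 1 with Bright higher and 6 with Dim higher. Ccne2 (cyclin E2), which helps start S phase, averaged 11.9 ± 0.708 FPKM in Bright, against 34.3 ± 6.80 FPKM in Dim (log2 fold change -1.43, limma adjusted p = 0.000729). Gmnn, which encodes geminin, an inhibitor of DNA re-replication, was at 71.4 ± 9.46 FPKM in Bright and 130.0 ± 13.3 FPKM in Dim, and Chaf1b, a histone chaperone, was the gene higher in Bright (41.0 ± 3.65 FPKM in Bright and 20.7 ± 5.12 FPKM in Dim). Of the 42 genes, 32 had a negative log2 fold change, where 22 of the 37 G2 and mitosis genes and 7084 of all 13416 genes tested did. Whether the lists differ from each other was not tested.

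**Figure D5:**
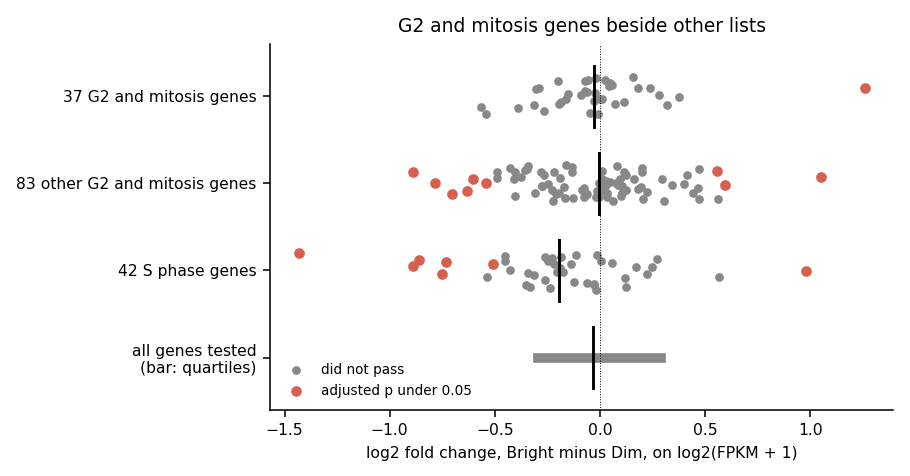
Log2 fold change, Bright minus Dim on log2(FPKM + 1), of the 37 G2 and mitosis genes, 83 other G2 and mitosis genes and 42 S phase genes (points; red for adjusted p under 0.05; black lines for medians), with the median and quartiles of all genes tested. The medians are -0.03, -0.01, -0.20 and -0.03 from top to bottom.

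The authors' deposited tables give a separate comparison of the same libraries. The authors' deposited table of all Bright against all Dim libraries gave q under 0.05 for 2 of the 37, Gas2l3 and Plk1, where 14.6% of the 13416 genes tested here had such a q. The authors' deposited tables for single pairs gave 0 of 37 in each pair, where 0.224%, 0.142% and 0.134% of those genes passed for pairs 1, 2 and 3. The median log2 ratio of Bright over Dim in those tables was -0.0015 in pair 1, 0.15 in pair 2 and -0.27 in pair 3.

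Some of these values carry an annotation limit. Exons of 8 of the 37 genes overlap exons of another gene, 7 of them (Plk1, Cdca8, Cdc20, Ube2c, Tacc3, Nusap1 and Tmpo) with a gene on the opposite strand and Top2a on the same strand, and whether the libraries kept strand is not stated. Near-identical copies (at least 200 bases at 95% identity) exist for Ccnb1, Cks2, Hmgb2, Ndc80 and Mki67, none of them in the expression table under their identifiers, so the levels of these 5 genes are uncertain.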

How the data were processed

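The deposited table holds FPKM per gene and library, in which the authors scaled fragments to transcript length and library size, per the file headers. TopHat2 2.1.1, Cufflinks 2.2.1 and mm9 are named in the submitters' processing notes, with no parameters. The gene coordinates matched GENCODE M21 on GRCm38 for 81.0% of 31584 identifiers and for 28 of the 37 genes, and only such coordinates are given for genes. The authors' deposited comparison tables hold a log2 ratio, a p-value and a q-value per gene, whose test is not stated. Read totals are not in these values, so depth is unknown and no counting intervals are given. Of the 6 per-sample columns all were used, and no 2 libraries were identical.

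Values were analysed as log2(FPKM + 1). The 13416 genes that reached 1 FPKM in 3 or more of the 6 libraries were fitted in limma 3.58.1 (R 4.3.3) with a mean-variance trend and robust moderation, with group as the only term, with Benjamini-Hochberg adjustment over all of them and a threshold of 0.05. Fold changes understate the change of low genes. The test was tried on simulated data with 200 changed genes and the SD of the Dim libraries in both groups, where 7.14% of calls were unchanged genes. Copies were found with blastn 2.17.0 in GENCODE M21 transcripts. Per-library values are given for called genes, the 3 nearest to the threshold, the 4 highest and 2 lowest by mean, and for Cdk1 and Kif23, whose groups did not overlap (these added after their values were seen), and up to 8 called genes of other lists were named. The members and lists were chosen with earlier results of these data known.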

Additional observations from a re-analysis of the deposited data

How the results depend on the processing

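Gas2l3 kept its call and direction under all 12 alternatives, which were a pseudocount of 0.1, no filter on low values, median rescaling, quantile normalization, limma without trend and robust estimation, a replicate block and the leaving out of each library. The count of the 37 genes called was 4 after median rescaling and 4 after quantile normalization (Cdk1, Tmpo and Gas2l3 higher in Bright, Plk1 higher in Dim), and 1 to 3 with 1 library left out, the 3 without Bright 2 (Birc5 and Plk1 added). With a library left out, other G2 and mitosis genes called numbered 4 (without Dim 2) and 5 (without Dim 3) to 10, S phase genes 6 to 8 and all genes 1957 (without Dim 2) to 2603, with 1973 without Dim 3; the median of the 37 genes ranged from -0.11 to 0.10. The numbers 1 to 3 are shared by both groups, but the labels do not tie them to an animal or day. For that reason they were not taken as pairs in the main fit. Deviations of same-numbered libraries from their group means correlated at 0.435, 0.511 and -0.194 for numbers 1, 2 and 3. Bright 1 with Dim 2 gave -0.547, and Bright 2 with Dim 1 gave -0.603. Numbers 1 and 2 thus matched across the groups, while Bright 3 and Dim 3 did not correlate best with each other. The count of genes called depends on this choice. With the number as a block, 10 of the 37 genes were called, 4 higher in Bright (limma adjusted p of 0.00023 for Gas2l3, 0.0259 for Cdk1, 0.0335 for Tmpo and 0.0419 for Cenpe) and 6 higher in Dim (0.00406 for Plk1, 0.00544 for Birc5, 0.0182 for Hmgb2, 0.0283 for Kif23, 0.0343 for Tpx2 and 0.0361 for Cdca3), with 30 of the other G2 and mitosis genes, 15 S phase genes and 5453 genes in all (40.6%). Signs changed for 21 of the 37 genes in some fit, in 52 of 444 fits and never with a call. After median rescaling these were Cenpf (0.0048), Ube2c (0.041), Ckap2 (0.054), Anln (0.044), Ect2 (0.0080), Dlgap5 (0.018) and Hmmr (0.034), and after quantile normalization Ube2c (0.023), Ckap2 (0.033) and Anln (0.014). With a library left out the log2 fold changes ranged as follows for Anln (-0.17 to 0.16), Aurka (-0.38 to 0.026), Aurkb (-0.29 to 0.0052), Cdc20 (-0.35 to 0.072), Cdca2 (-0.17 to 0.053), Cdca8 (-0.14 to 0.18), Cenpa (-0.19 to 0.14), Cenpf (-0.16 to 0.15), Ckap2 (-0.069 to 0.097), Cks2 (-0.21 to 0.20), Dlgap5 (-0.11 to 0.043), Ect2 (-0.22 to 0.11), Hmmr (-0.12 to 0.075), Kif20b (-0.082 to 0.21), Mki67 (-0.092 to 0.30), Nusap1 (-0.017 to 0.23), Smc4 (-0.15 to 0.069), Tacc3 (-0.25 to 0.11), Top2a (-0.11 to 0.21), Ttk (-0.087 to 0.17), Ube2c (-0.22 to 0.18). The cause was not tested. No library depth or counting error was available, so no counting error stands beside any value, Gas2l3 at the lowest FPKM included.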
